A study of Caenorhabditis elegans with 6 samples.

Results

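The aquaporins aqp-1 to aqp-8 of Caenorhabditis elegans were followed across the 6 arrays of a study of octopamine in whole adult worms. They were chosen by name, as the probe sets that the platform annotation assigns to 1 of these 8 genes. This gave 9 probe sets, 2 for aqp-2 and 1 for each other gene, of 22625 on the array, and 8 of the 17118 genes that the array names. The animals were the wild type N2, the mutant daf-16(mu86), which lacks the FOXO transcription factor DAF-16, and the double mutant ser-3(ok2007);ser-6(tm2146), which lacks a pair of octopamine receptors and is called the double mutant hereafter. Both mutants are labelled as being in the N2 background. Synchronized animals grew for 3 days and then spent 2 days on plates with octopamine at 20 mg/mL or on plates without it. None of the 6 groups had another solute at this concentration, so octopamine itself and the added solute cannot be told apart. Octopamine is the invertebrate counterpart of noradrenaline, and the title of the series relates it to oxidative stress resistance and to DAF-16. The animals are called day 4 adults in one label and 5 days old in another. Each of the 6 combinations of strain and treatment was 1 array of RNA from whole bodies, so a ratio of a pair of arrays has no replicate check. In whole animals, fewer cells of a type and less RNA per cell cannot be told apart.

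Aquaporins are membrane channels through which water moves down its osmotic gradient, and the branch called aquaglyceroporins also passes glycerol. In the worm they are best known from the tissues that handle salt and water, which are the excretory canal, the hypodermis under the cuticle, and the intestine. Worms make glycerol when the medium is hypertonic and lose it again when the medium becomes dilute. In worms kept with octopamine, aqp-8, aqp-2 and aqp-1 were higher and aqp-4 was lower in all 3 strains, aqp-7 had no common direction, and the remaining 3 genes gave signals near background.

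Signals are the deposited linear intensities. A signal was called near background when it lay under 15.5, the 40th percentile of the mean signal over all probe sets other than controls. As a second measure, 5 control probe sets for yeast genes, which have no target in worm RNA, gave signals of 4.82 to 15.2 with a median of 7.91. On both measures aqp-1, aqp-2, aqp-4, aqp-7 and aqp-8 were above background on all 6 arrays. The gene aqp-5 was under 15.5 on 6 of 6 arrays, aqp-6 on 5 and aqp-3 on 4. Of the 6 arrays, aqp-5 exceeded the brightest yeast control on 0, aqp-3 on 2 and aqp-6 on 3. The means of aqp-3, aqp-5 and aqp-6 lay below the filter, so 5 of the 8 aquaporins are among the 10251 genes that were tested.

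**Figure D1:**
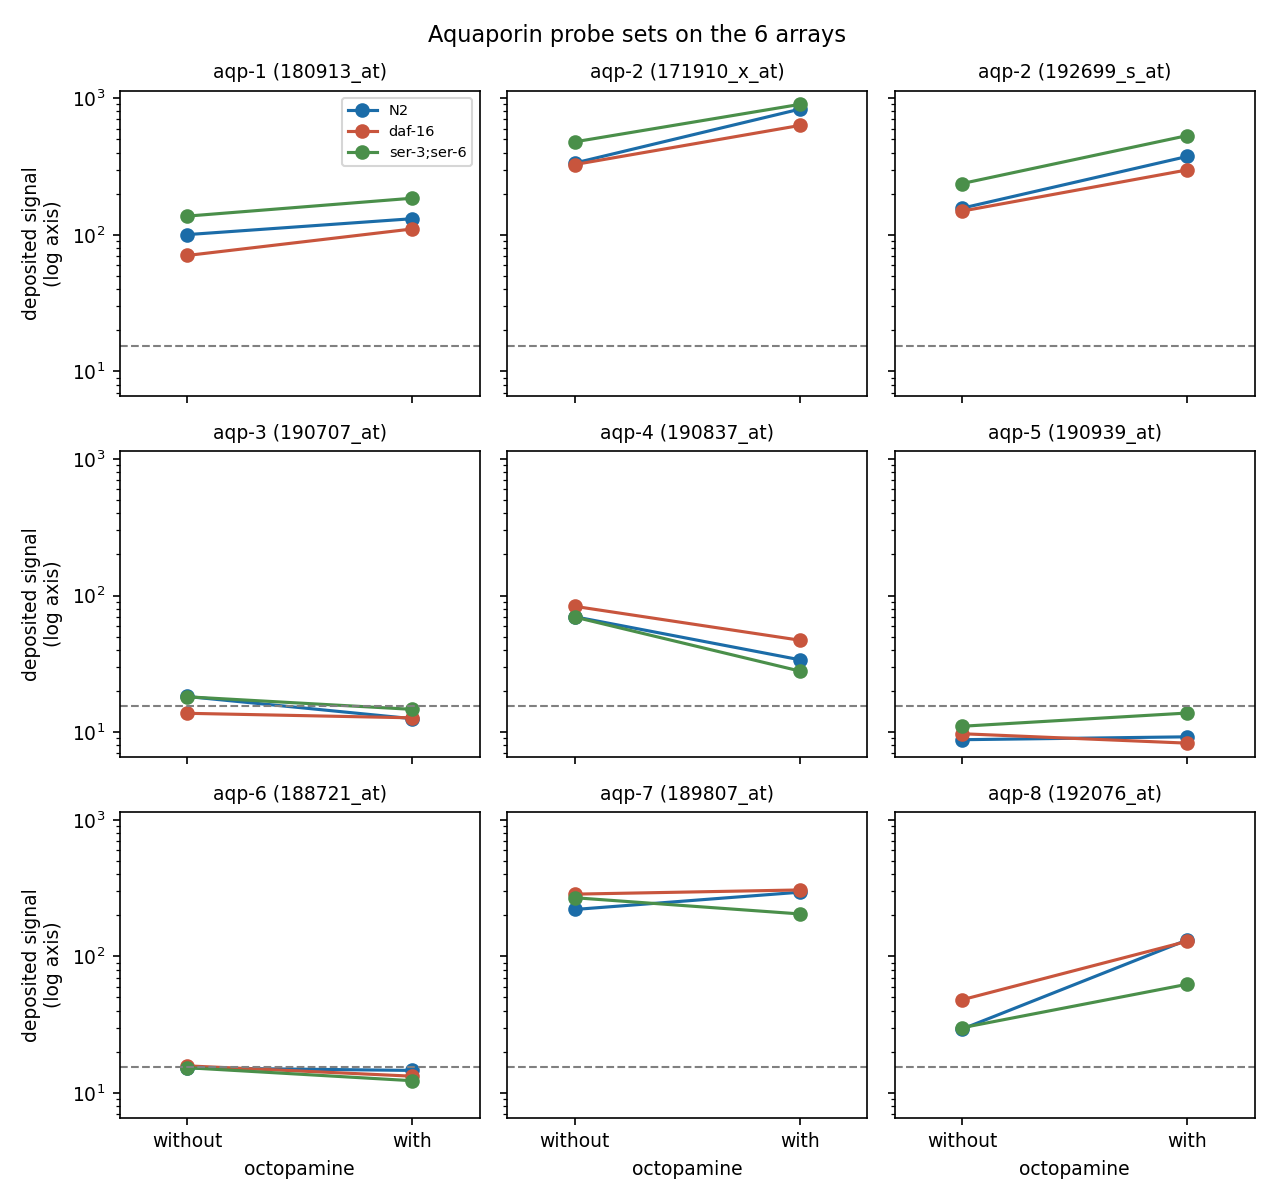
Deposited signal (log axis) of the 9 aquaporin probe sets without and with octopamine, 1 point per array, 1 colour per strain; the dashed line is the filter at 15.5. Lines for aqp-8, both probe sets of aqp-2 and aqp-1 go up in all 3 strains, those for aqp-4 go down, and aqp-3, aqp-5 and aqp-6 lie around or under the dashed line.

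Facts of the arrays that bear on these values are few. Array medians were 23.77 to 25.96, and each array's median was subtracted on the log2 scale before ratios were taken. Correlations between arrays over genes were 0.963 to 0.994. The 4 probe sets of daf-16 had lower signals in the daf-16 strain, with log2 ratios of -0.37 to -2.78, and the single ser-3 probe set was lower in the double mutant by -0.37 and -0.57 at dim signals of 17.7 to 30.8. For ser-6 the annotation listed 0 probe sets. As a sign of RNA quality, the ubiquitin control had 3'/5' ratios of 5.32 to 5.48 without octopamine and 5.74 to 6.23 with it, so this ratio moved with the treatment, and its part in the octopamine results was not tested. The same ratio for actin was 1.69 to 2.14 untreated and 1.79 to 2.00 treated. For Gapdh it was 0.92 to 1.24 untreated and 1.03 to 1.09 treated. For both of these controls the treated range lay within the untreated one.

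The test of octopamine used all 6 arrays in an additive limma model with terms for strain and treatment. In it the 3 strains act as 3 pairs of arrays, and the error starts from the spread of the change between strains. Limma draws that error toward those of genes of similar signal, with 6.28 prior against 2 residual degrees of freedom. Where a gene's ratios differ widely between strains, its SE, interval and p are therefore smaller than its own ratios would give. Adjusted p-values are Benjamini-Hochberg values over the 10251 genes, with a threshold of 0.05, and a gene is said to have risen or fallen only if it passed. Of the 5 aquaporins tested, 3 rose and 1 fell. Over all genes tested 7.37% rose and 14.7% fell, and this split moved with the scaling: genes that rose made up 33.3% of the calls with array medians subtracted, 48.8% with values as deposited and 52.6% after quantile normalization. The aquaporin counts were 3 and 1 under all 3 scalings. The median change of the 5 aquaporins was 0.43, against -0.06 for all genes tested.

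The gene aqp-8 encodes a channel of the excretory canal, the tubular cell that carries fluid out of the animal, where it lies on the side facing the lumen. Its signal in N2 was 29.4 without and 132 with octopamine, while daf-16 gave 48.1 and 129 and the double mutant 30.0 and 62.5. All 3 treated arrays lay above all 3 untreated ones, and the treated double mutant lay well below the other treated arrays. The share of all genes whose treated and untreated arrays separate in this way is not given here, for aqp-8 or the aquaporins below. The log2 ratio was 2.08 for N2, 1.38 for daf-16 and 1.01 for the double mutant. Over the strains aqp-8 rose by 1.49 ± 0.19 on the log2 scale (SE, 3 pairs of arrays; adjusted p = 0.00183 by limma), a 2.81-fold change with a 95% interval of 2.08 to 3.79. The SE and the interval are smaller than these 3 ratios alone would give. Only 21 of the 10251 genes, aqp-8 included, had a change this high, which is 0.205%.

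The size of the aqp-8 ratio differed between the strains. The ratio in N2 exceeded that in the double mutant by 1.07 and that in daf-16 by 0.70, and daf-16 exceeded the double mutant by 0.38. With 1 array per group these differences have no test. A difference of at least 2-fold between the octopamine ratios was found for 1.04% of all genes between N2 and the double mutant, 0.205% between N2 and daf-16, and 1.06% between daf-16 and the double mutant. Of the 5 aquaporins tested, aqp-8 between N2 and the double mutant was the only case, and it crossed the 2-fold line under other processing, at 0.99 after quantile normalization and 0.91 with 16 added to the signals. The strains did not differ alike in both treatments: without octopamine daf-16 was the high strain, by 0.67 over N2, and with octopamine the double mutant was the low one, by -1.12 against N2 and -1.09 against daf-16.

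**Figure D2:**
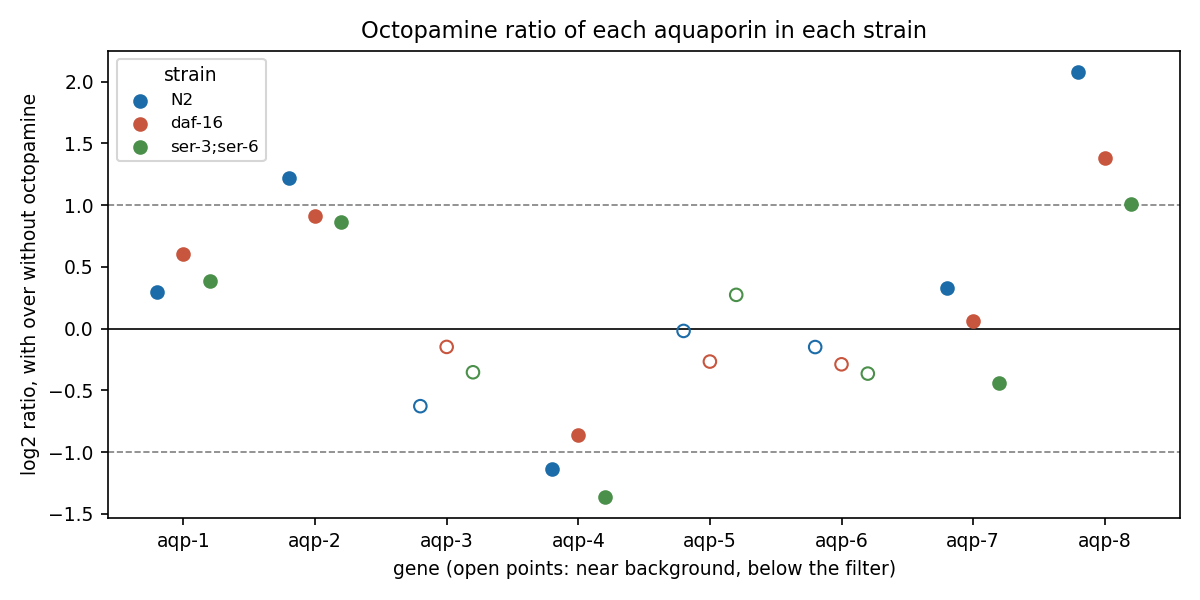
Log2 ratio of the signal with over without octopamine for each aquaporin, 1 point per strain, with dashed lines at 2-fold; open points mark the 3 genes below the filter. The points of aqp-8 spread from 1.01 to 2.08, those of aqp-4 from -1.36 to -0.86, and those of aqp-7 lie on both sides of 0.

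The gene aqp-2 encodes a water channel known from the excretory canal and the hypodermis. On its brighter probe set the signal in N2 was 335 without and 831 with octopamine, while daf-16 gave 327 and 632 and the double mutant 479 and 901. On its other probe set it went from 157 to 375, from 149 to 299 and from 237 to 533 in the same order. On both probe sets the 3 treated arrays lay above the 3 untreated ones, and the double mutant was the highest strain in each treatment.

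The brighter aqp-2 probe set had log2 ratios of 1.22 for N2, 0.91 for daf-16 and 0.86 for the double mutant, and those of the other were 1.17, 0.96 and 1.12. Both probe sets carry a suffix that marks probes matching more than 1 transcript, so a contribution of other transcripts cannot be separated from that of aqp-2. The gene rose by 1.00 ± 0.09 (SE, adjusted p = 0.000463 by limma), a 2-fold change (2.00, 95% interval 1.72 to 2.32). With each probe set fitted by itself, the dimmer one rose by 1.08 ± 0.09 (SE, adjusted p = 0.000267 by limma). The order of strains by ratio thus depended on the probe set, while the direction and the approximate size did not.

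The gene aqp-3 encodes an aquaglyceroporin of the excretory canal. Its signals without and with octopamine were 18.2 and 12.6 for N2, 13.7 and 12.7 for daf-16, and 18.2 and 14.7 for the double mutant. The treated arrays were lower in 3 of 3 strains, but treated and untreated arrays overlapped and the range of 12.6 to 18.2 reached into that of the yeast controls, which ended at 15.2. Without the filter on low values its change was -0.38 ± 0.12 (SE), which did not pass (adjusted p = 0.0750 by limma).

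The gene aqp-4 encodes a water channel of the intestine. Its signal in N2 was 70.0 without and 33.9 with octopamine, while daf-16 gave 83.5 and 47.2 and the double mutant 69.6 and 28.0. All 3 treated arrays lay below all 3 untreated ones, and daf-16 was the highest strain in each treatment. The log2 ratios were -1.14, -0.86 and -1.36. Over the strains aqp-4 fell, with a change of -1.12 ± 0.13 (SE, adjusted p = 0.00128 by limma), so that untreated arrays were 2.17-fold brighter. Only 98 of the 10251 genes, or 0.956%, had a change this low, aqp-4 included.

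The gene aqp-1 encodes a glycerol channel, known in the worm as a gene downstream of DAF-16 and of the heat shock factor HSF-1 in the shortening of life by glucose. Its signal in N2 was 100 without and 131 with octopamine, while daf-16 gave 70.5 and 110 and the double mutant 137 and 185. Each treated array lay above the untreated array of its own strain, but the groups overlapped, since the untreated double mutant was brighter than treated N2 and treated daf-16. The log2 ratios were 0.30, 0.61 and 0.39, and aqp-1 rose by 0.43 ± 0.11 (SE, adjusted p = 0.0262 by limma), a 1.35-fold change with a 95% interval of 1.13 to 1.60. This call depended on the strains used: by limma the adjusted p was 0.0646 without the N2 pair and 0.169 without the daf-16 pair. The changes were then 0.50 and 0.34. Without the double mutant pair the call was kept, at a change of 0.45. Each of these fits has fewer arrays, and the change itself was smaller only without the daf-16 pair. A change as high as that of aqp-1 was found for 5.69% of genes.

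The gene aqp-7 encodes an aquaglyceroporin. Its signal in N2 was 221 without and 295 with octopamine, while daf-16 gave 286 and 306 and the double mutant 269 and 205. It was thus higher with octopamine in N2 and lower in the double mutant, at log2 ratios of 0.33, 0.06 and -0.44, and the treated and untreated arrays overlapped. The change over strains was -0.02 ± 0.14 (SE, adjusted p = 0.949 by limma), with an interval from -0.34 to 0.31, and its sign turned positive with the values as deposited (0.043), after quantile normalization (0.11), with 16 added to the signals (0.0056) and without the double mutant (0.20). As a fold, the interval runs from 0.792 to 1.24.

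The genes aqp-5 and aqp-6 gave little signal. For aqp-5 the signals without and with octopamine were 8.80 and 9.24 for N2, 9.74 and 8.31 for daf-16, and 11.05 and 13.8 for the double mutant. For aqp-6 they were 15.2 and 14.6, 15.8 and 13.3, and 15.3 and 12.3 in the same order. The aqp-6 signal was lower with octopamine in 3 of 3 strains, by log2 ratios of -0.15, -0.29 and -0.36. Without the filter on low values neither gene passed, with changes of -0.0040 ± 0.12 for aqp-5 and -0.27 ± 0.11 for aqp-6 (SE; adjusted p = 0.990 and 0.146 by limma).

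Within single strains, members past 2-fold were few. In N2 aqp-8 and aqp-2 were at least 2-fold higher, as were 1.2% of all genes tested, and aqp-4 was at least 2-fold lower, as were 1.45%. In daf-16 aqp-8 alone of the 5 was at least 2-fold higher (0.771% of all genes) and 0 of the 5 were 2-fold lower (1.14%). In the double mutant aqp-8 was just past 2-fold higher (0.985%) and aqp-4 past 2-fold lower (2.17%). The dimmer aqp-2 probe set was also past 2-fold there, at 1.12. These counts depended on the processing. After quantile normalization aqp-2 also passed 2-fold in daf-16, at 1.03. With 16 added to the signals aqp-4 was short of 2-fold in N2, at -0.84, and in the double mutant, at -0.99, and aqp-8 was short of it in the double mutant, at 0.74.

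**Figure D3:**
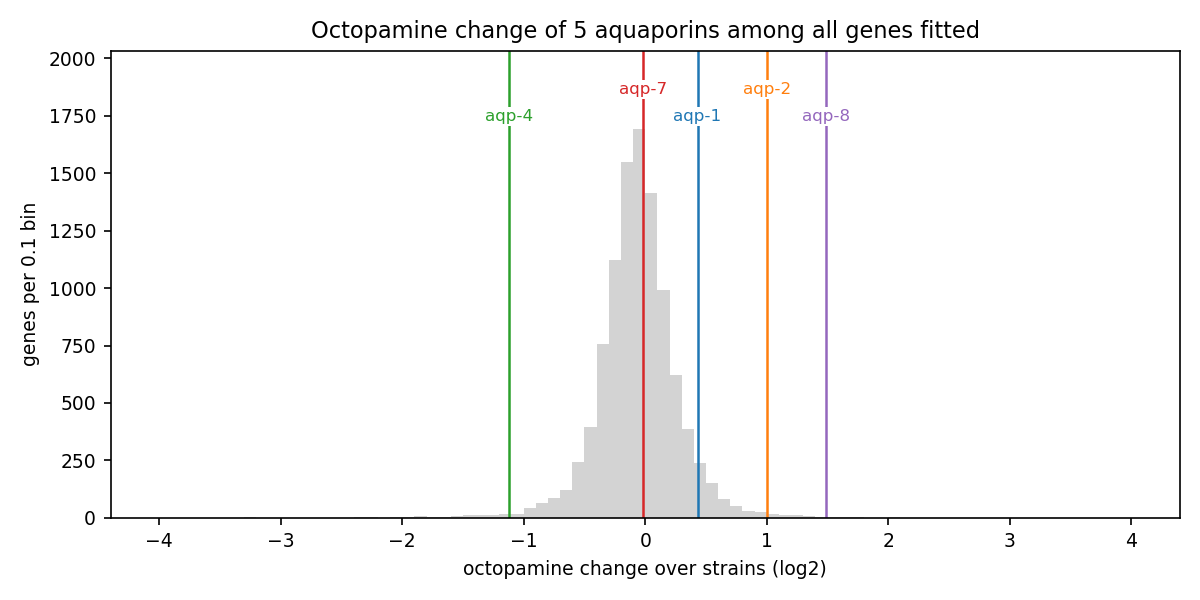
Histogram of the octopamine change over strains (log2, bins of 0.1) for the 10251 genes tested, with vertical lines at the 5 aquaporins. The lines of aqp-8 at 1.49, aqp-2 at 1.00 and aqp-4 at -1.12 stand in the thin outer parts of the histogram, and that of aqp-7 at -0.02 near its peak.

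The strains were then compared over both treatments. The comparisons of each mutant with N2 share the N2 arrays. In daf-16 against N2, 0 of the 5 aquaporins passed by limma, and 1 had an unadjusted p under 0.05, while 0.244% of all genes passed in either direction. The largest difference was that of aqp-1, at -0.40 ± 0.13 (SE, adjusted p = 0.592 by limma, 95% interval -0.70 to -0.10). It was lower in daf-16 both without octopamine, by -0.55, and with it, by -0.25. For aqp-8 the difference was 0.32 with an interval from -0.21 to 0.85, for aqp-4 0.34 from -0.02 to 0.71, for aqp-2 -0.24 from -0.50 to 0.02 and for aqp-7 0.19 from -0.20 to 0.59.

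In the double mutant against N2, again 0 of 5 passed by limma, 2 had an unadjusted p under 0.05, and 2.62% of all genes passed. These 2 were aqp-1, at 0.42 ± 0.13 (SE, adjusted p = 0.130), and aqp-8, at -0.58 ± 0.23 (SE, adjusted p = 0.194). For aqp-1 the ratios were 0.37 without and 0.46 with octopamine. For aqp-8 they were -0.05 and -1.12, so the difference lay in the treated arrays. For aqp-2 the difference was 0.26 with an interval from -0.0035 to 0.52, for aqp-4 -0.20 from -0.56 to 0.16 and for aqp-7 -0.18 from -0.57 to 0.21. On the dimmer aqp-2 probe set fitted by itself it was larger, at 0.49 ± 0.11 (SE, interval 0.24 to 0.75). That probe set did not pass either (adjusted p = 0.0540 by limma), though its unadjusted p was 0.00188.

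The mutants were also set against each other, a comparison added after these values were seen. By limma aqp-1 was higher in the double mutant than in daf-16 by 0.82 ± 0.13 (SE, adjusted p = 0.0193), a 1.76-fold difference with an interval of 1.43 to 2.17. Its log2 ratios were 0.93 without and 0.71 with octopamine. It was the only aquaporin of the 5 to pass, while 3.66% of all genes did so in either direction. For aqp-2 the difference was 0.50 ± 0.11 (SE, adjusted p = 0.0562 by limma), and on the dimmer probe set fitted by itself it passed at 0.72 ± 0.11 (SE, adjusted p = 0.0160 by limma). For aqp-8 it was -0.90 ± 0.23 (SE, adjusted p = 0.0762), for aqp-4 -0.54 ± 0.16 (SE, adjusted p = 0.106), and for aqp-7 -0.37 ± 0.17 (SE, adjusted p = 0.260), all by limma. Without the N2 pair aqp-8 passed (adjusted p = 0.0220 by limma), as did aqp-2 (0.0430), which also passed with values as deposited (0.0477) and after quantile normalization (0.0294).

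Within single treatments, aqp-8 with octopamine was the only member of the 5 past 2-fold between strains, and this held for the double mutant against N2 (1.44% of all genes) and against daf-16 (1.71%). Without octopamine 0 of 5 were past 2-fold in daf-16 against N2 (0.39%), in the double mutant against N2 (0.888%) or in the double mutant against daf-16 (1.15%). With octopamine 0 of 5 were past it in daf-16 against N2 (0.39%). With 16 added to the signals aqp-8 was short of 2-fold too, at -0.94 against N2 and -0.91 against daf-16.

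**Figure D4:**
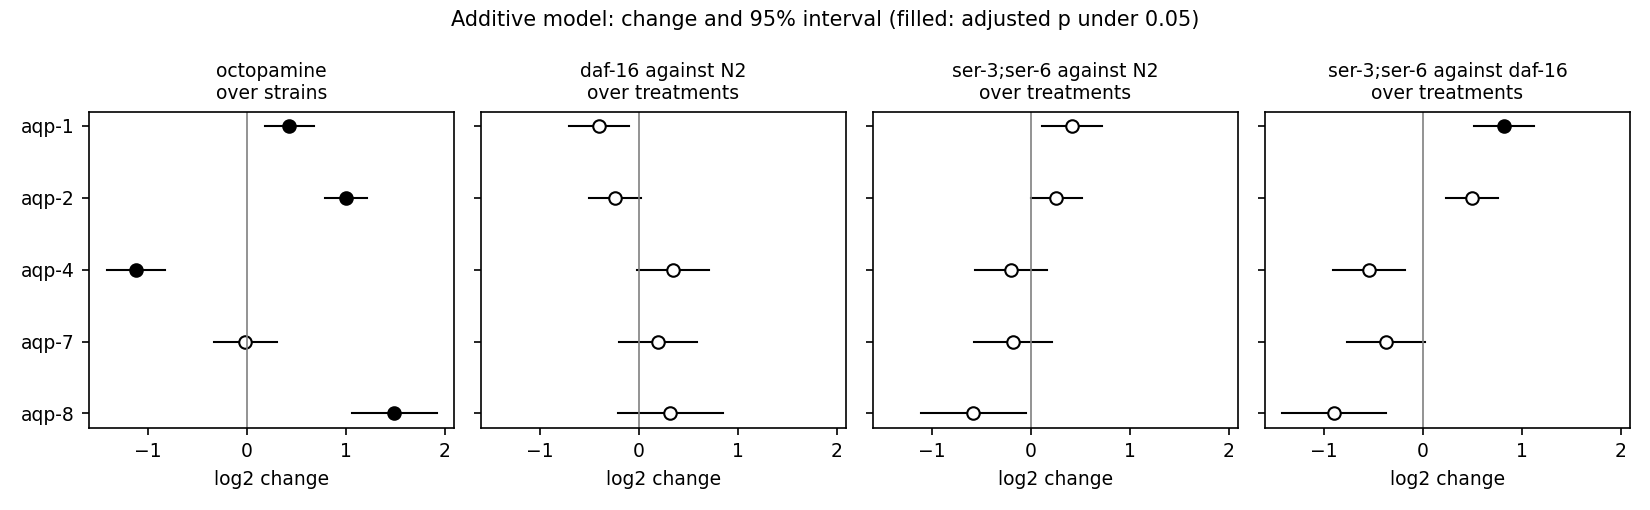
Change of the 5 tested aquaporins on the log2 scale (points) with 95% intervals (lines) from the additive limma model, for octopamine and for 3 comparisons of strains; filled points have an adjusted p under 0.05. Filled points are those of aqp-1, aqp-2, aqp-4 and aqp-8 with octopamine, and of aqp-1 between the double mutant and daf-16.

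The genes whose profiles over the 6 arrays lay nearest to each variable aquaporin were read as a description, by the root mean square difference of log2 levels after each gene's own mean was removed. All profiles come from the same arrays. Nearest to aqp-8 were T02B11.4, at a difference of 0.15, nspe-1 at 0.23, cyts-1 at 0.25, gpdh-1 at 0.29 and parg-2 at 0.32. The gene gpdh-1 encodes a glycerol-3-phosphate dehydrogenase, an enzyme of the path by which glycerol is made under hypertonic stress. Its signal in N2 was 109 without and 342 with octopamine, while daf-16 gave 156 and 350 and the double mutant 60.6 and 204. Its log2 ratio in the double mutant, 1.71, was above that in N2, 1.56, whereas for aqp-8 and T02B11.4 the double mutant had the lowest ratio. The ratio of T02B11.4 was 2.45 for N2, 1.59 for daf-16 and 1.06 for the double mutant.

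Nearest to aqp-2 were fbxc-25 at 0.07, F10D2.10 at 0.08, the palmitoyl-protein thioesterase gene ppt-1 at 0.09, Y45G5AM.5 at 0.09 and the hedgehog-related gene wrt-10 at 0.10. Nearest to aqp-1 were klu-1 at 0.06, Y51B9A.9 and fbxc-34 at 0.09, and tmyb-1 and the forkhead gene fkh-8 at 0.11. Nearest to aqp-4 were Y48G9A.9 at 0.11, C46F2.1, F54D5.4 and M03B6.1 at 0.13, and srdf-2.1 at 0.15. Of the genes named here klu-1, fbxc-25, cyts-1 and M03B6.1 had signals under 15.5 on part of the arrays.

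**Figure D5:**
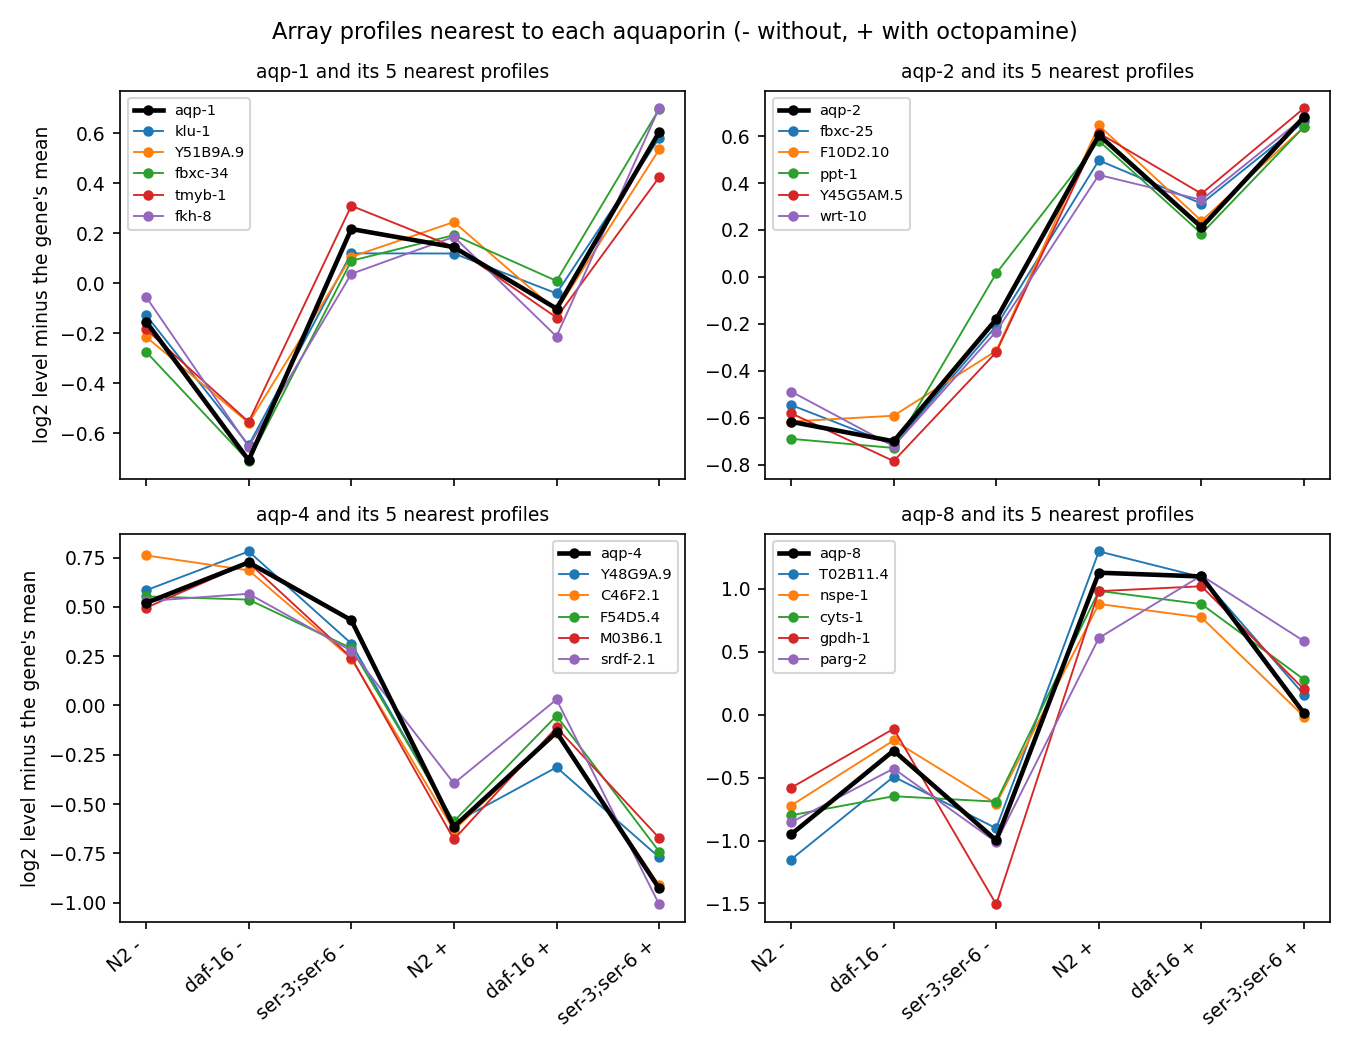
Log2 level minus the gene's own mean on the 6 arrays for aqp-1, aqp-2, aqp-4 and aqp-8 (thick black lines) and the 5 genes with the nearest profiles (thin lines). The profile of aqp-8 is high in treated N2 and daf-16 and lower in the treated double mutant, and gpdh-1 departs from it most in the untreated double mutant.

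Of the further aquaporins aqp-9 to aqp-12, only aqp-10 and aqp-11 had a probe set assigned. The signal of aqp-10 in N2 was 257 without and 372 with octopamine, while daf-16 gave 318 and 382 and the double mutant 335 and 418, and it rose by 0.31 ± 0.09 (SE, adjusted p = 0.0358 by limma). For aqp-11 the log2 ratios were -0.05, -0.11 and -0.47, and its change of -0.21 ± 0.11 (SE) did not pass.

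Among 13 measured genes of glycerol metabolism and osmoregulation, 6 rose and 1 fell, against the 7.37% and 14.7% of all genes, and their median change was 0.30. The lists were chosen with earlier results of these data known, so such counts are a description only. The gene that fell was gpdh-3, another glycerol-3-phosphate dehydrogenase gene, at -0.51. The largest changes were those of gpdh-1, at 1.47 ± 0.13 (SE), the inositol transporter hmit-1.1, at 0.60 ± 0.13 (SE), and gpdh-2, at 0.60 ± 0.09 (SE), all upward. Of 19 subunits of the V-ATPase, the proton pump abundant in the excretory canal and the intestine, 0 rose and 5 fell, with a median change of -0.14. These 5 were vha-4, vha-6, vha-7, vha-8 and vha-19. The largest falls were those of the intestinal subunit vha-6, at -0.43 ± 0.13 (SE), vha-19, at -0.36 ± 0.11 (SE), and vha-8, at -0.29 ± 0.08 (SE). These calls depended on scaling: 0 of 19 passed with values as deposited or after quantile normalization, where the list's median was -0.08 and -0.05. The counts of the glycerol and osmoregulation list were 6 and 1 under all 3 scalings.

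Markers of tissues in which aquaporins are known, and of body wall muscle, were read beside these changes. Of all genes tested 7.37% rose and 14.7% fell, so lists this short would hold a few calls of either kind. Of 17 excretory canal markers on the array 15 were tested, of which 2 rose and 0 fell, with a median change of 0.04. Those that rose were the intermediate filament gene ifa-4, at 0.45, and the spectrin gene sma-1, at 0.33. The summed signal of the canal markers was 1794 to 1936 without octopamine and 2054 to 2127 with it, and nhx-9 and ceh-6 were near background. The brightest canal marker in this sum was another intermediate filament gene, which did not pass. Its signal went from 511 to 651 in N2, 571 to 611 in daf-16 and 526 to 551 in the double mutant. Of 12 intestine markers 2 rose, the GATA factor gene elt-7 and the intermediate filament gene ifb-2. The 2 that fell were the cysteine protease gene cpr-6, at -0.64, and vha-6, which is also in the V-ATPase list. Their median change was -0.07, and the summed signals were 10112 to 12115 untreated and 9679 to 10764 treated. The intestine sum came mostly from cpr-6 and another bright protease gene. All such sums are of deposited signals, without subtraction of array medians. Of 9 hypodermis markers 8 were tested, of which nhr-25 and elt-3 rose and the adult collagen gene col-19 fell, with a median of -0.16. Their summed signals were 1647 to 2021 untreated and 1482 to 1838 treated. Of 14 body wall muscle markers 13 were tested, of which the myosin gene myo-3, at 0.73, and unc-89 rose and 0 fell, with a median of 0.13 and summed signals of 6431 to 8356 untreated and 6955 to 9720 treated. With values as deposited and after quantile normalization vha-6 and col-19 did not pass, and the body wall muscle markers that rose numbered 3 and 5. None of the 15 tested canal markers had a change as high as that of aqp-8, found for 0.205% of all genes tested. None of the 12 intestine markers had a change as low as that of aqp-4, found for 0.956%. At such shares a short list would seldom hold such a gene. The part of tissue content in the aquaporin changes was not tested.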

How the data were processed

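The authors deposited 1 linear intensity per probe set and array for 6 single-colour arrays, from biotin-labelled total RNA extracted with TRIzol per the labels' protocols. How probes were summarised and arrays scaled, and the genome build of the design, are not given in the sources used here. The platform annotation gave 20766 of 22548 probe sets other than the 77 controls 1 gene. Symbols were updated by Entrez identifier, which matched 8 of 8 aquaporins to WBcel235. No pseudocount was added to the deposited intensities before log2 was taken, and array medians, which spanned 0.13, were subtracted. The probe set with the highest mean stood for a gene. Genes were kept from the 40th percentile of mean signal upward.

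The model was fitted with limma 3.58.1 (R 4.3.3), with a mean-variance trend, 2 residual and 6.28 prior degrees of freedom. It was run on simulated data with known changes that were alike in all strains, which does not cover changes that differ between strains. Each array is its own combination of strain and treatment, and no label gives repeated cultures of a group. The p-values thus reflect the spread of the change among these arrays alone. In that spread, differences between strains, between cultures and of technical origin cannot be separated. The number of arrays limits the precision. Tables were made with Python 3.11.15, numpy 2.4.6 and pandas 2.3.3, and figures with matplotlib 3.10.9. Named genes were all members, the genes mutated in the strains, the 5 nearest profiles of members ranging over at least 1 on the log2 scale, and the 3 largest called changes of each list. Members and lists were chosen with earlier results of these data known. Markers near background and the rest of the called genes in counts of 5 or fewer were named outside this rule, after their values were seen. Alternatives were other scaling, filters, a pseudocount of 16, the median of probe sets, each probe set by itself, no trend, and leaving out each strain. The double mutant against daf-16, the fit of each probe set and the lists under other scalings were added after the data were seen.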

Additional observations from a re-analysis of the deposited data

Results flagged for a closer look

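The genes aqp-7 and aqp-5 had octopamine ratios of opposite sign in a pair of strains, with both ratios over 0.25 in size, and the difference was not tested since each group was 1 array. For aqp-7 the log2 ratio was 0.33 for N2 and -0.44 for the double mutant, at signals of 205 to 306 that are well above background. For aqp-5 it was -0.27 for daf-16 and 0.27 for the double mutant, but all 6 of its signals were near background.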

How the results depend on the processing

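With octopamine, the rise of aqp-2 and aqp-8 and the fall of aqp-4 kept direction and call under all 11 alternatives, at 0.89 to 1.11, 1.18 to 1.73 and -1.25 to -0.84. The aqp-1 change ranged from 0.34 to 0.51. It lost its call without the N2 or the daf-16 pair and kept it without the double mutant pair, each of which leaves fewer arrays. The aqp-7 change, -0.02 in the main setting, was 0.043 with values as deposited, 0.11 after quantile normalization, 0.0056 with a pseudocount of 16, and from -0.19 (without N2) to 0.20 (without the double mutant) with a strain left out; the cause was not tested. All genes called for octopamine numbered 2266, and 1051 to 2655 with a strain left out.

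Between strains, counts of all genes moved most. In daf-16 against N2 they were 25, 6 without the variance trend and 147 without the double mutant. In the double mutant against N2 they were 269, 169 as deposited, 145 after quantile normalization, 87 without the trend, 424 with each probe set a row and 687 without daf-16. Aquaporin calls there were 0 throughout. For the double mutant against daf-16 all-gene calls were 375, and 248 without the trend. Aquaporins called higher were 1, but 2 as deposited, after quantile normalization, with the pseudocount, with the median of probe sets, with each probe set a row (by the dimmer aqp-2 probe set) and without N2, since aqp-2 then passed. Called lower were 0, but 1 without N2, aqp-8, at an adjusted p of 0.0220 by limma against 0.0762. With the pseudocount the aqp-8 ratio in N2 went from 2.08 to 1.65.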
